A study of Danio rerio with 6 samples.

Results

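Genes of the blood vessel endothelium were followed in the olfactory epithelium of adult zebrafish that had been imprinted with the odorant phenyl ethyl alcohol (PEA) as juveniles, and in control fish. The genes were chosen by name as markers of the cells that line blood vessels, 10 in all, and 9 of them matched a gene of the 33737 in the count table. No row matched kdrl, the VEGF receptor most often used as a vessel marker in zebrafish, and it was not analysed here. The gene listed as kdr carries the identifier of the other VEGF receptor 2 type gene of the fish. The gene listed as vsg1 is now named plvapb, and etv2 is also known as etsrp.

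There were 3 PEA libraries and 3 control libraries, and the labels call the exposure a biological triplicate. In both groups the fish were of the strain labelled New wild type (AB derived line). PEA fish received the odorant daily over 3 weeks of development and control fish received distilled water, and the tissue was taken at an age of 6 months. The labels give 10 fish for each experimental group without saying whether each library holds all of them, and values of single fish are not given. The p-values below weigh the difference between groups against the variation between these libraries only. Vessels of blood and lymph run beside and within the epithelium, under a sheath of connective tissue, so they can enter a dissected sample. Counts assigned to genes came to between 43590575 and 46153505 in the PEA libraries and between 45153814 and 49085973 in the control libraries, and the endothelial genes took 0.00844% to 0.00985% of them in PEA and 0.00773% to 0.00865% in control libraries.

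Endothelial cells form the inner wall of blood vessels and are told to grow, branch or rest by receptor tyrosine kinases at their surface. VEGF receptors (kdr, flt1) read vascular endothelial growth factors, Tek (also called Tie2) with its partner Tie1 reads angiopoietins, and VE-cadherin (cdh5) holds neighbouring cells together. Transcription factors of the ETS family (fli1a, erg, etv2) switch these genes on in the embryo, and fli1a reporters are in wide use to see vessels in the living fish. Some capillaries have pores, or fenestrae, closed by a thin diaphragm made of the protein Plvap, which zebrafish encode in plvapa and plvapb (vsg1), whereas vessels with a tight barrier largely lack it.

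All 9 endothelial genes had reads in every library, between 55 and 1622 counts. Neuronal genes were present as the tissue label asks for, with the channel subunit cnga4 at 449 to 485 CPM in PEA and 468 to 496 CPM in control libraries. CPM, the usual depth-scaled unit, are counts relative to the library total after TMM scaling, a correction for library composition. Since no gene lengths for this build were at hand, levels are compared between libraries and not between genes. In bulk tissue, fewer endothelial cells and less RNA in each of them cannot be told apart.

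The gene of fenestrated vessels, vsg1 (ENSDARG00000045003), was higher in every PEA library than in any control library. It stood at 36.8, 35.3 and 34.3 CPM in PEA 1 to 3, against 27.0, 22.7 and 26.0 CPM in control 1 to 3. The raw counts behind these values were 1621, 1520 and 1622 in the PEA libraries and 1164, 1163 and 1297 in the control libraries. The lowest PEA library thus lay above the highest control library with no overlap, also before any scaling. Its mean was 35.5 ± 1.25 CPM in PEA and 25.2 ± 2.23 CPM in control libraries (SD, n = 3 each). The difference came to 1.41-fold (log2 fold change 0.49, SE 0.097, 95% interval of the fold change 1.21 to 1.64). By the quasi-likelihood test of edgeR the unadjusted p was 0.000814, the 4th lowest among the 20628 genes tested, but the adjusted p over all of them was 1.00, so vsg1 was not called. With DESeq2 its log2 fold change was 0.50 (SE 0.13) at an adjusted p of 0.187, so it was not called there either. The exact permutation test over the 6 libraries, 2-sided, gave p = 0.10, the smallest that 3 against 3 libraries allow. Any gene without overlap between the groups returns this value, cdh5 included, so the test adds nothing to the order of the libraries. Leaving out each library in turn kept the log2 fold change between 0.42 and 0.55, and without both libraries numbered 1 it was 0.52.

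Across all genes tested, edgeR called 0 at an adjusted p under 0.05 (0% of those tested) and DESeq2 called 5 of 27192 (0.0184%). Both called 0 of the 9 endothelial genes. At an unadjusted p under 0.05 in edgeR, 1 endothelial gene, vsg1, was higher in PEA, where 0.805% of all genes were, and 0 were lower, where 0.853% of all genes were. For 2 endothelial genes, vsg1 and cdh5, the lowest PEA library was above the highest control library, against 2.56% of all genes tested, and for 0 the order was the opposite, against 2.94%. With only 9 genes, chosen with earlier results of these data known, these shares describe the genes and test nothing.

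**Figure D1:**
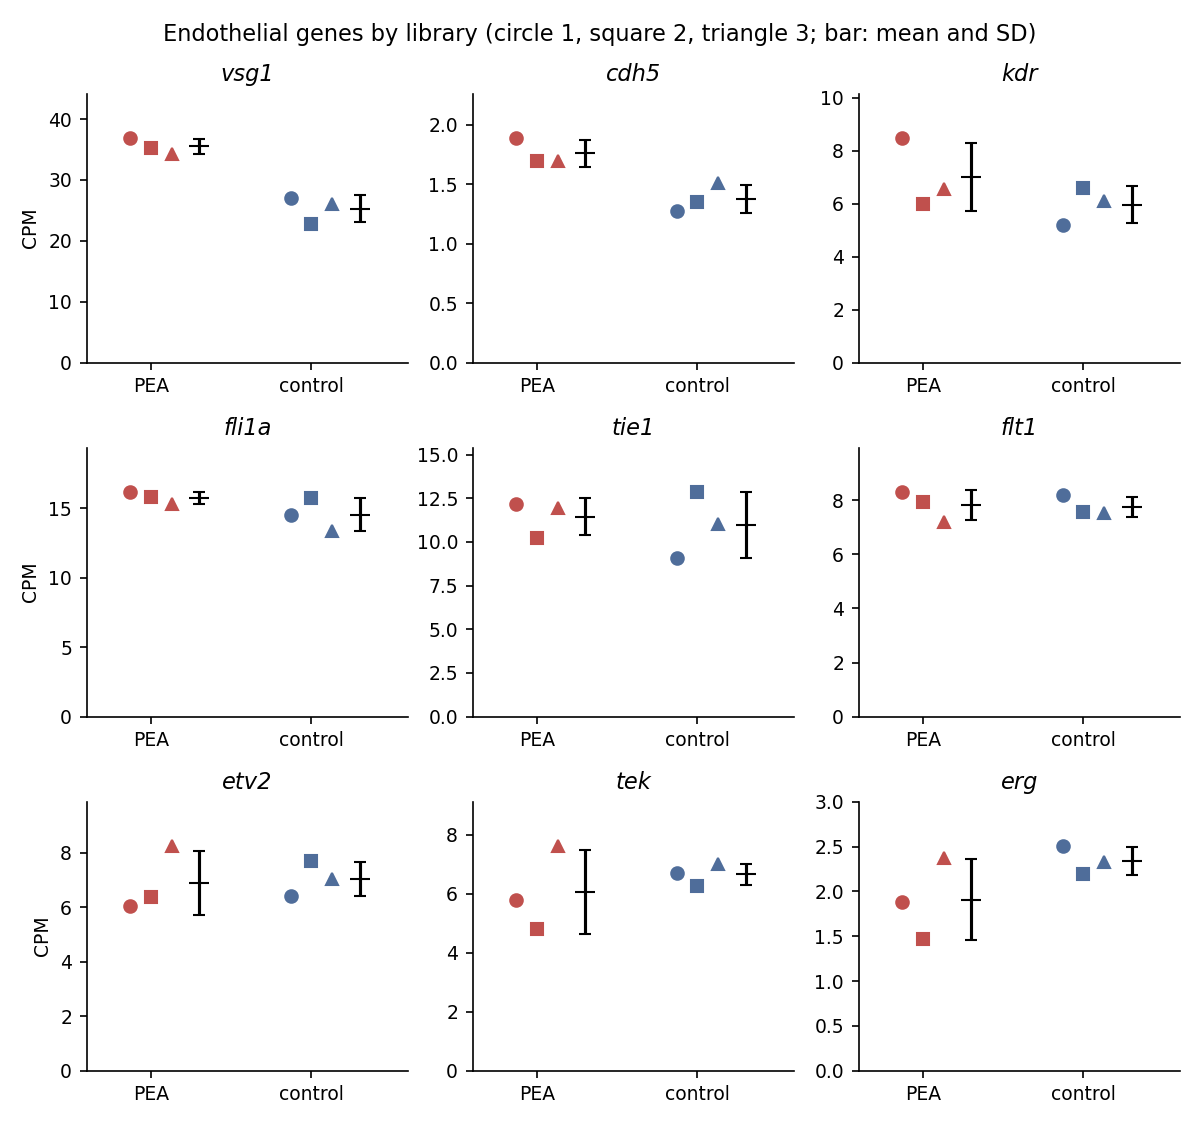
Level of each endothelial gene in CPM (vertical axes, each starting at 0) in the 3 PEA libraries and the 3 control libraries, with marker shape giving the library number and the black bar the mean and SD. The groups are apart for vsg1, at 34.3 to 36.8 CPM in PEA and 22.7 to 27.0 CPM in control libraries, and for cdh5, and they overlap for the other 7 genes.

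The adhesion gene cdh5 (ENSDARG00000075549), which encodes VE-cadherin of the junctions between endothelial cells, was the other gene without overlap. It had 1.89, 1.70 and 1.69 CPM in PEA 1 to 3, against 1.27, 1.35 and 1.51 CPM in control 1 to 3. The gap was narrow in reads, since PEA 2 held 73 counts and control 3 held 75, and the order between them rests on the scaling. Its mean was 1.76 ± 0.1102 CPM in PEA and 1.38 ± 0.118 CPM in control libraries (SD, n = 3 each). On the log2 scale PEA was 0.35 higher (SE 0.20, 95% interval -0.10 to 0.81), and edgeR gave an adjusted p of 1.00. At a mean of 72.5 counts, counting alone gives a coefficient of variation of 11.7%, above the 6.27% between the PEA libraries and the 8.61% between the control libraries.

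Of the VEGF receptors, kdr (ENSDARG00000017321), a signalling receptor for VEGF-A, varied more between libraries than between groups. It had 8.47, 5.99 and 6.56 CPM in PEA 1 to 3, against 5.21, 6.59 and 6.11 CPM in control 1 to 3. PEA 1 was its highest library and control 1 its lowest, while PEA 2 lay below the control libraries numbered 2 and 3. The log2 fold change was 0.23 (SE 0.18, 95% interval -0.17 to 0.63), 0.076 without PEA 1 and -0.0087 without both libraries numbered 1. The receptor flt1 (ENSDARG00000019371), which binds VEGF-A tightly and holds it back from kdr and kdrl, was the steadiest gene between the groups. It had 8.29, 7.95 and 7.20 CPM in PEA 1 to 3, against 8.18, 7.56 and 7.51 CPM in control 1 to 3. Its fold change was 1.01 with a 95% interval of 0.825 to 1.23, so that for this gene a change the size of that of vsg1 lay outside the interval. The ratio of kdr to flt1 counts was 1.02, 0.754 and 0.912 in PEA 1 to 3 and 0.637, 0.871 and 0.813 in control 1 to 3, and the groups overlapped.

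The angiopoietin receptors showed no shift between groups beyond the spread of the libraries. For tie1 (ENSDARG00000004105), a receptor that modulates signalling through Tek, the levels were 12.2, 10.2 and 11.9 CPM in PEA 1 to 3, against 9.06, 12.8 and 11.01 CPM in control 1 to 3. Both the lowest and the highest library were controls. Its log2 fold change was 0.062 (SE 0.15, 95% interval -0.29 to 0.41), and it turned to -0.053 without control 1. The angiopoietin receptor tek (ENSDARG00000028663) had 5.77, 4.79 and 7.60 CPM in PEA 1 to 3, against 6.70, 6.27 and 6.99 CPM in control 1 to 3. Here PEA 2 was lowest and PEA 3 highest, with all control libraries between them. The log2 fold change of -0.14 (SE 0.18, 95% interval -0.56 to 0.29) came to 0.0061 without PEA 2 and to -0.33 without PEA 3.

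Among the ETS factors, fli1a (ENSDARG00000054632) was at 16.1, 15.8 and 15.3 CPM in PEA 1 to 3, against 14.5, 15.7 and 13.3 CPM in control 1 to 3. Control 2 lay between PEA 2 and PEA 3, and the difference was 1.08-fold (95% interval 0.916 to 1.28). The gene erg (ENSDARG00000077304), a factor that keeps endothelial junctions and identity in grown vessels, had 1.89, 1.46 and 2.37 CPM in PEA 1 to 3, against 2.502, 2.19 and 2.33 CPM in control 1 to 3. PEA 1 and PEA 2 lay below every control library and PEA 3 did not. Its log2 fold change was the lowest of the 9, at -0.29 (SE 0.22, 95% interval -0.80 to 0.22), with an adjusted p of 1.00 in edgeR, and it was -0.14 without PEA 2 and -0.48 without PEA 3. The factor etv2 (ENSDARG00000053868), which in the embryo turns mesoderm into endothelium, was still read at 266, 275 and 389 counts in PEA 1 to 3 and 277, 393 and 350 counts in control 1 to 3. These counts correspond to 6.04, 6.39 and 8.23 CPM against 6.42, 7.68 and 7.03 CPM. Its log2 fold change was -0.032 (SE 0.16, 95% interval -0.40 to 0.34), and its sign depended on which library was left out.

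**Figure D2:**
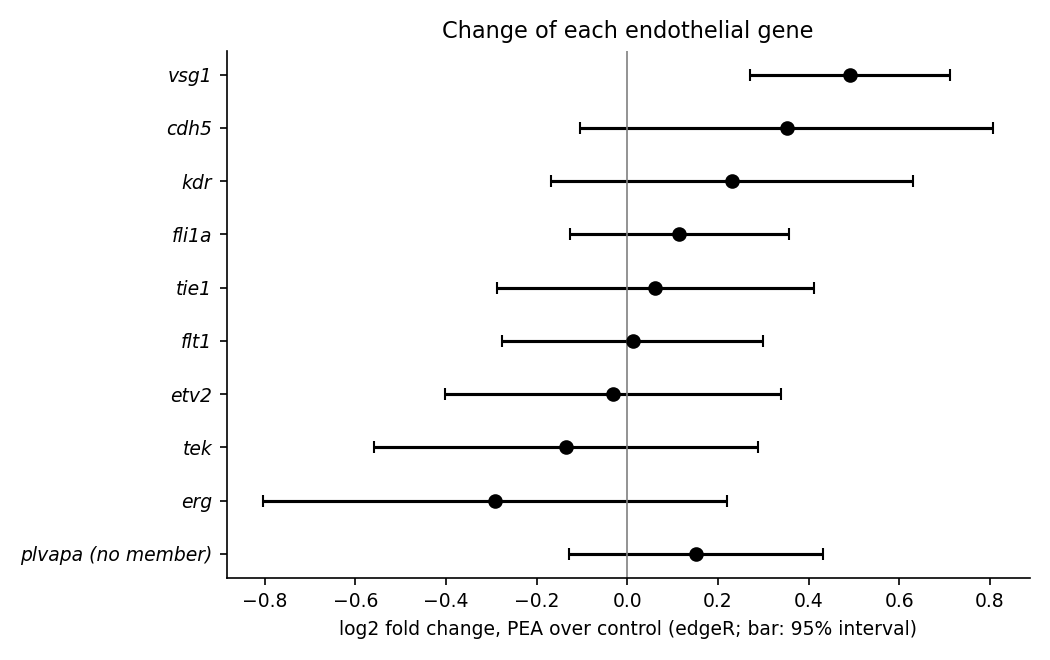
Log2 fold change of PEA over control (horizontal axis) for the 9 endothelial genes and for plvapa, with the 95% interval from edgeR as bars. The interval of vsg1 lies above 0, from 0.27 to 0.71, and the intervals of the other genes include 0.

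Over the 9 genes the log2 fold change was above 0 in 6 and below 0 in 3, and its median was 0.062. Of all genes tested 48.5% had a log2 fold change above 0, with a median of -0.0048. Without vsg1 the median of the other 8 genes was 0.037. Their summed level was 60.7, 54.3 and 60.9 CPM in PEA 1 to 3, against 53.9, 60.2 and 55.8 CPM in control 1 to 3, and the groups overlapped. With vsg1 the sum was 97.5, 89.6 and 95.2 CPM in PEA 1 to 3, against 80.8, 82.9 and 81.9 CPM in control 1 to 3. The summed levels were thus apart only with vsg1, the gene with the most counts among the 9.

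The endothelial genes did not follow a common order over the libraries. PEA 1 was the highest library for 5 of the 9 genes, namely vsg1, cdh5, kdr, fli1a and flt1, and PEA 3 for etv2 and tek. Control 1 was lowest for cdh5, kdr and tie1, but it was highest for erg. PEA 2 stood 0.39 below the gene's own mean for tek and 0.50 below it for erg on the log2 scale, but 0.24 above it for vsg1. Within the PEA group, tek, erg and etv2 were each highest in PEA 3, whereas vsg1, cdh5, kdr, fli1a, tie1 and flt1 were each highest in PEA 1. The spread within groups was small for flt1, fli1a, vsg1 and cdh5, with an SD on the log2 scale of 0.088, 0.088, 0.099 and 0.10, against a median of 0.19 over all genes tested. For tek and erg it was 0.24 and 0.25. Most of the spread of tek and erg lay in the PEA group, where the coefficient of variation was 23.6% for tek and 23.8% for erg, against 5.41% and 6.71% in the control libraries.

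**Figure D3:**
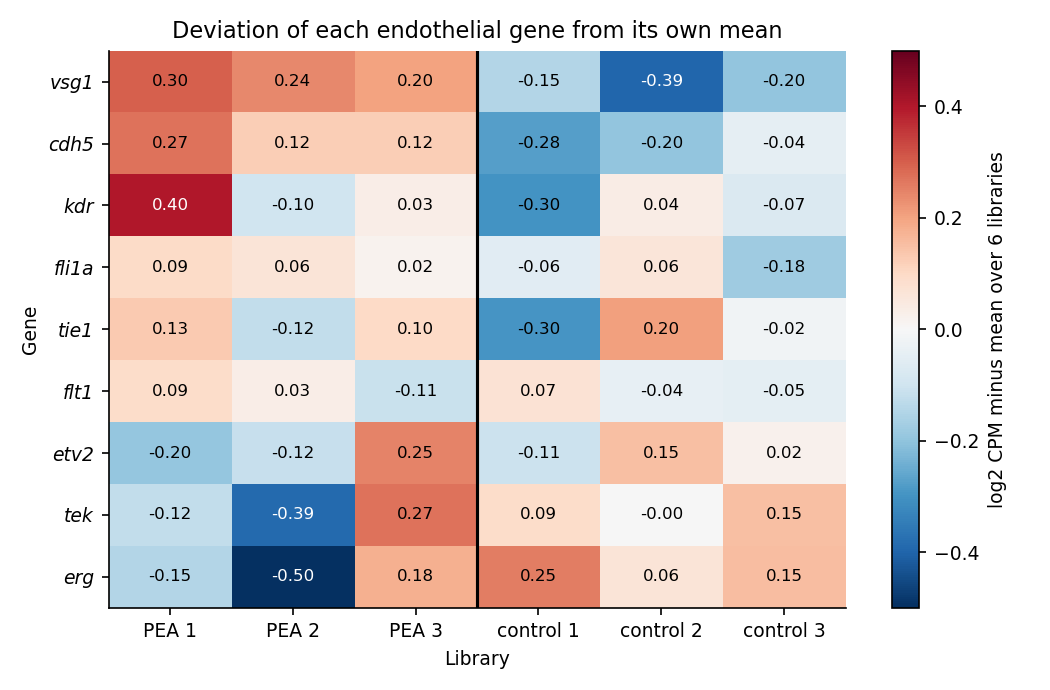
Deviation of log2 CPM from the gene's own mean over the 6 libraries, with genes as rows and PEA 1 to 3 left of control 1 to 3, red for higher and blue for lower values. For vsg1 and cdh5 every PEA library is above and every control library below the mean, whereas tek and erg have their lowest value in PEA 2 (-0.39 and -0.50).

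The second Plvap gene, plvapa, listed under the older name si:dkey-208k22.3, gave a comparison for vsg1 at a similar number of reads. It had 1821, 1429 and 1551 counts in PEA 1 to 3, against 1544, 1515 and 1558 counts in control 1 to 3, and the groups overlapped. Its level was 41.4, 33.2 and 32.8 CPM in PEA and 35.8, 29.6 and 31.3 CPM in control libraries. PEA was thus higher by 0.15 on the log2 scale (SE 0.12), with an adjusted p of 1.00 in edgeR. The ratio of vsg1 to plvapa counts, which needs no scaling between libraries, was 0.890, 1.06 and 1.05 in PEA 1 to 3, against 0.754, 0.768 and 0.832 in control 1 to 3. This ratio contains the vsg1 counts, which were apart between the groups on their own, so it is no independent measure of vsg1. Every PEA ratio was above every control ratio, and the log2 ratio differed by 0.35 (SE 0.093). The exact permutation test of this difference, 2-sided, gave p = 0.10, the smallest the design allows. Without overlap it could give no other value, so it again restates the order of the libraries. How the counting treated reads that fit more than 1 gene is not given in the sources used here.

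**Figure D4:**
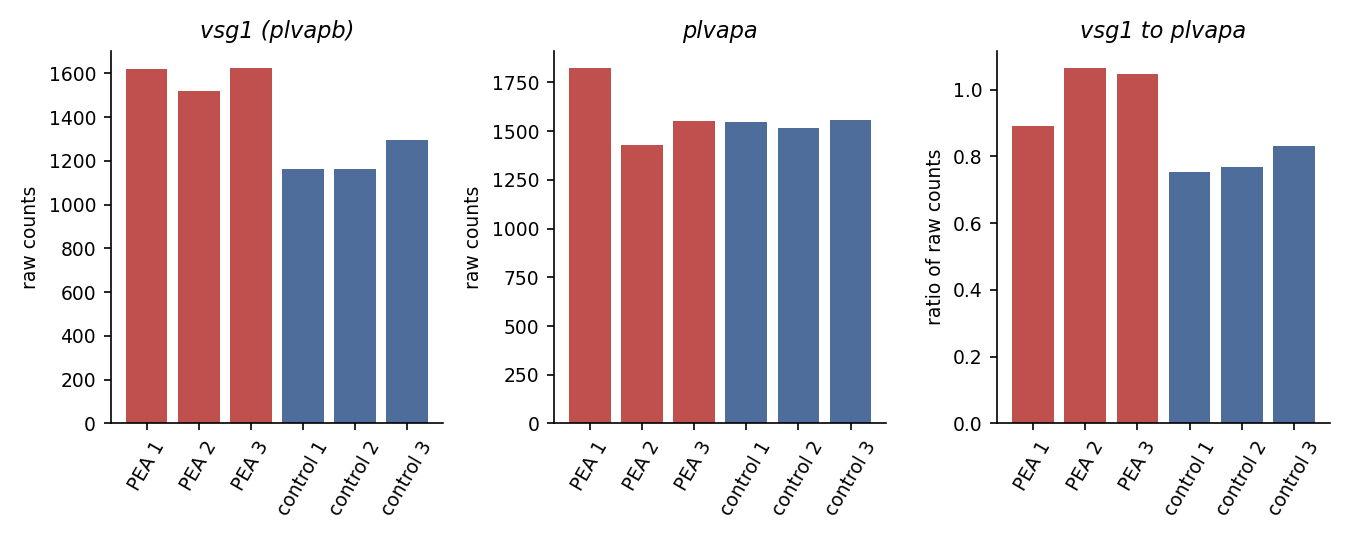
Raw counts of vsg1 (plvapb) and of plvapa and the ratio of the counts (vertical axes, from 0) in PEA 1 to 3 (red) and control 1 to 3 (blue). The ratio is 0.890 to 1.06 in the PEA libraries and 0.754 to 0.832 in the control libraries.

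Proteins of fenestrae and of the vessel barrier, plvapa included, were listed together, and edgeR called 0 of the 10 tested. The list thus mixes genes of fenestrated and of barrier vessels. It also holds the transcription factor gene lef1. Its genes cldn5a and cldn5b are counted again in the list of junction and surface proteins. Of the 10 tested, the log2 fold change was above 0 in 8, with a median of 0.15. The lipid transporter gene mfsd2ab was at 77.4, 119 and 63.5 CPM in PEA 1 to 3 and 90.3, 75.4 and 67.4 CPM in control 1 to 3. Which cells its reads came from was not tested. The glucose transporter gene slc2a1b was at 35.4, 31.0 and 30.2 CPM against 21.3, 31.6 and 31.6 CPM, with only control 1 apart. The tight junction gene cldn5b had a log2 fold change of 0.14 (SE 0.17).

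Ligands of the endothelial receptors were read too, and edgeR called 0 of the 20 tested (13 above 0, median 0.063). In 1 of the 20 every PEA library lay above every control library, against 2.56% of all genes tested. For vegfab, which encodes a ligand of kdr and flt1, the levels were 9.81, 9.13 and 11.3 CPM in PEA 1 to 3 and 10.8, 11.7 and 12.3 CPM in control 1 to 3, a log2 fold change of -0.20 (SE 0.13). The activating ligand of Tek, angpt1, had a log2 fold change of -0.16 (SE 0.20). The peptide gene apln, whose product guides endothelial cells through the receptors Aplnra and Aplnrb, had the lowest p of this list in edgeR, with a log2 fold change of 0.45 (SE 0.21) and an adjusted p of 1.00. It was at 4.43, 3.35 and 5.48 CPM in PEA 1 to 3 and 3.08, 3.20 and 3.45 CPM in control 1 to 3, where PEA 2 lay below control 3.

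Further receptors and co-receptors (22 tested, 9 above 0, median -0.011) and endothelial transcription factors (16 tested, 4 above 0, median -0.071) held 0 calls. Among these factors, fli1b, a duplicate of fli1a, was at 23.6, 24.5 and 25.9 CPM in PEA 1 to 3 and 18.7, 24.1 and 27.8 CPM in control 1 to 3. For sox7, a factor of embryonic vessels, the log2 fold change was -0.080 (SE 0.19). Its level was 334 to 465 CPM in PEA and 319 to 511 CPM in control libraries, and which cells it came from was not tested. Junction and surface proteins (22 tested, 16 above 0, median 0.10, 0 calls) included sele, a selectin to which leukocytes bind. This gene was at 4.79, 4.51 and 4.97 CPM in PEA 1 to 3 and 3.48, 3.99 and 4.42 CPM in control 1 to 3, without overlap, and differed by 0.26 on the log2 scale (SE 0.16) at an adjusted p of 1.00 in edgeR. In raw counts sele overlapped, with 194 in PEA 2 and 220 in control 3, so this order rests on the scaling. Every PEA library was above every control library in 2.56% of all genes tested.

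Markers of the cell types around vessels were read in the same way, and none of these lists held a call from edgeR or DESeq2. Mural cells, the pericytes and smooth muscle cells that wrap vessels, had a median log2 fold change of 0.13 over 14 genes (8 above 0). Their summed level ranged from 374 to 408 CPM in PEA and from 323 to 420 CPM in control libraries. For rgs5a, a pericyte gene, the log2 fold change was 0.17 (SE 0.12), and for tagln of smooth muscle it was 0.48 (SE 0.26). Of the 14 mural genes, 6 were below 0, among them notch3, a receptor of mural cells, at -0.080 (SE 0.25). The mural genes read did not include pdgfrb, a common pericyte marker. Among them, pdgfra is also in the connective tissue list and foxc1b in the list of endothelial transcription factors. Lymphatic endothelium had a median of 0.019 over 9 genes and a summed level of 137 to 146 CPM in PEA and 138 to 147 CPM in control libraries, with prox1a at -0.010 (SE 0.12). Most of that sum came from nr2f2 and cdh6. Their mean levels were 50.3 and 47.8 CPM in PEA and 52.1 and 45.1 CPM in control libraries. The gene nr2f2 is also in the list of endothelial transcription factors.

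Red blood cell genes, which stand in for blood in the samples, had a log2 fold change above 0 in 10 of 10 tested genes. Of all genes tested 48.5% did, and the median of the red blood cell genes was 0.095. At an unadjusted p under 0.05 in edgeR, 0 of them were found. Their summed level was 146 to 156 CPM in PEA and 121 to 176 CPM in control libraries, so the groups overlapped, and 4 rows of the embryonic globin genes hbae1 and hbbe1.1 had 0 counts in every library. The globin gene hbaa1 was at 90.3, 79.7 and 78.0 CPM in PEA 1 to 3 and 74.3, 101.2 and 66.9 CPM in control 1 to 3, and control 2 was highest. Leukocytes had a median of -0.0013 over 15 genes and a summed level of 610 to 652 CPM in PEA and 601 to 654 CPM in control libraries. Connective tissue had a median of 0.0039 over 12 genes, and olfactory neurons -0.025 over 9 genes. The part of these cells in the level of vsg1 was not tested.

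**Figure D5:**
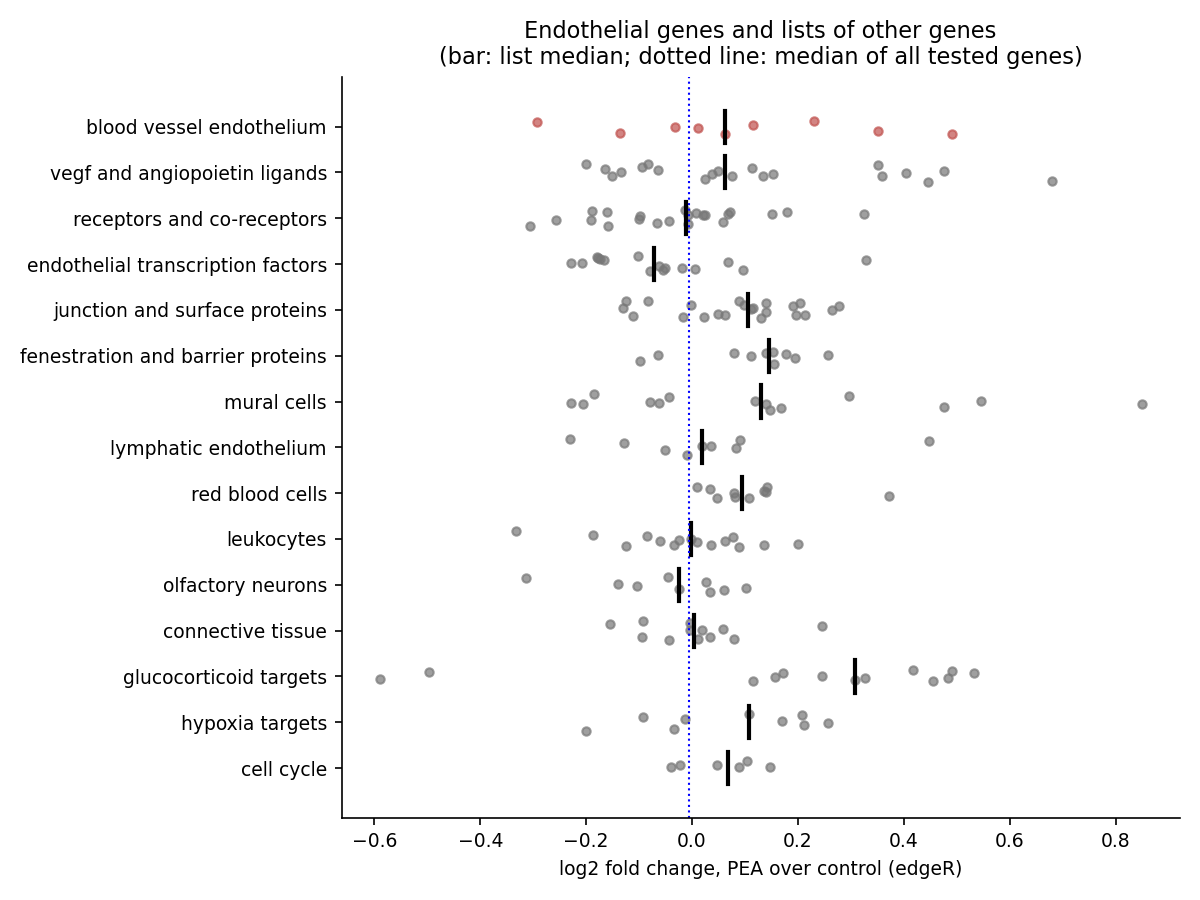
Log2 fold change of PEA over control (horizontal axis) of each tested gene, by list, with the list median as a black bar and the median of all tested genes as a dotted line. The endothelial genes (red, top) spread from -0.29 to 0.49 around a median of 0.062.

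The glucocorticoid target fkbp5 set 2 libraries apart, with 71344, 13386 and 15213 counts in PEA 1 to 3 and 61019, 5078 and 5009 counts in control 1 to 3. The groups overlapped, since control 1 held more fkbp5 counts than PEA 2 and PEA 3. Of 13 genes tested in the list of glucocorticoid targets, 11 had a log2 fold change above 0. The median was 0.31, the highest of the lists, and edgeR called 0 of the 13. The 2 below 0 were zbtb16a at -0.59 (SE 0.79) and zbtb16b at -0.50 (SE 0.47), both lowest in control 1. The list also holds nr3c1, the gene of the receptor itself. Most of the summed level of the list came from fkbp5, tsc22d3 and cebpd. The sum was 3110, 2396 and 1293 CPM in PEA 1 to 3, against 3543, 928 and 642 CPM in control 1 to 3. It was highest in control 1 and lowest in control 3, and PEA 2 lay above PEA 3, control 2 and control 3. The part of these targets in the level of vsg1 was not tested. Among the endothelial genes kdr and tie1 changed sign without PEA 1 and control 1 together, and 4 of 9 then had a log2 fold change above 0.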

How the data were processed

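Total RNA of the olfactory epithelium of adult zebrafish was sequenced in 3 PEA and 3 control libraries. Raw counts for each gene and library were used as deposited, and the authors made them by checking reads with FastQC 0.11.9, trimming with Trim Galore 0.6.4, aligning with Bowtie2 (default parameters, build Zv9) and counting with HTSeq 0.11.2. DESeq2 1.24 within SARTools was their test. Which gene annotation, strand setting and rule for reads with several alignments were used is not stated in the labels or the paper. The table also holds 6 columns of normalized values per library, group means and a fold change by the authors, none of which was used. Members were matched by the name in the table, and list genes by that name or by the current symbol of the identifier. The members and lists were chosen with earlier results of these data known.

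Counts were tested with edgeR 4.0.16 (R 4.3.3), by the quasi-likelihood test with TMM factors, low counts removed by filterByExpr, and a model with the exposure group alone. P-values were adjusted by Benjamini-Hochberg over the 20628 genes left. The SE is the absolute log2 fold change divided by the square root of F, and the 95% interval uses the degrees of freedom of that test. Log2 CPM used a prior count of 2. DESeq2 1.42.0 was an alternative. Further alternatives in edgeR were the size factors of DESeq2, all genes with a count, only genes reaching 10 counts throughout, a block for the replicate number, omission of 1 library at a time, and omission of both libraries numbered 1. The fits were tested on simulated data. Replicate libraries differed by a chi-square of 15.8 to 60.5 per gene, so none was counted as a repeat of another. At this depth 3 counts correspond to 0.0586 to 0.0697 CPM. All members were named, and plvapa, fli1b, cldn5b, vegfab, angpt1 and fkbp5 were always given. From each other list the 3 genes with the highest CPM and the 3 with the lowest p could be named. Not all of these are named in the text. Genes outside this rule, zbtb16a and cxcr4a among them, were named after their values were seen.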

Additional observations from a re-analysis of the deposited data

How the results depend on the processing

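The number of genes called by edgeR was 0, and it was 5 with DESeq2 (ighv1-4, igl3c3, mchr1b, SEL1L3 and ENSDARG00000038624), 1 without both libraries numbered 1 (fkbp5), and 0 to 1 on omitting single libraries (zgc:163079, without control 3), all named after their values were seen. At an unadjusted p under 0.05 edgeR had 342 genes and DESeq2 348. In edgeR these were 0.805% of the genes tested with PEA higher and 0.853% with PEA lower. This is less than the share of 0.05 that the threshold would pass if no gene differed. A high adjusted p is thus no evidence that a gene is the same in both groups. None of the 12 alternatives called any of the 9 endothelial genes. For vsg1, cdh5, fli1a and erg the direction was the same under all 12, and the log2 fold change of vsg1 ranged from 0.42 to 0.55 with adjusted p-values between 0.187 (DESeq2) and 1.00. Without both libraries numbered 1, kdr turned to -0.0087 and tie1 to -0.099. With each library left out in turn, the log2 fold change ranged from -0.053 to 0.19 for tie1, from -0.030 to 0.067 for flt1, from -0.18 to 0.058 for etv2 and from -0.33 to 0.0061 for tek. The median over the 9 genes ranged from 0.056 to 0.18 in those fits, highest without control 2, and was -0.0016 without both libraries numbered 1. The causes of these shifts were not tested. With the replicate block that median was 0.072 and edgeR called 0 genes. Correlations of the deviations of same-numbered libraries were 0.17, -0.15 and 0.14 for numbers 1 to 3. Of the 6 libraries, 3 matched best, among those of the other group, the library of their own number. Such values cannot settle whether same-numbered libraries share more than the group number in their titles. With 3 libraries per group, genes such as cdh5 and erg, at a mean of 72.5 and 99.0 counts, had intervals that allow changes in either direction.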

Other observations

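The transcription factor gene klf2a, which blood flow induces in endothelial cells and which other cells use too, varied more between libraries than any of the 9 endothelial genes. It was at 241, 247 and 62.2 CPM in PEA 1 to 3 and at 342, 52.4 and 44.0 CPM in control 1 to 3. The gene cxcr4b encodes a chemokine receptor of many migrating cells. It had 131, 143 and 69.9 CPM in PEA 1 to 3 and 146, 72.2 and 57.2 CPM in control 1 to 3. For both genes control 1, PEA 1 and PEA 2 were the highest libraries, and the same held for tsc22d3, a glucocorticoid target, at 565, 796 and 278 CPM in PEA 1 to 3 and 829, 250 and 149 CPM in control 1 to 3. A link between these genes was not tested. Their log2 fold changes were 0.33 (SE 0.79) for klf2a, 0.32 (SE 0.37) for cxcr4b and 0.42 (SE 0.60) for tsc22d3. The groups overlapped for each of them. The related gene cxcr4a did not follow the order of cxcr4b over the libraries. It was at 9.81, 11.9 and 14.3 CPM in PEA 1 to 3 and 11.8, 13.3 and 11.1 CPM in control 1 to 3.

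Genes of the response to low oxygen, vegfab among them, had a median log2 fold change of 0.11 over 9 genes. Of these, 5 were above and 4 below 0, with 0 calls from edgeR. The list mixes targets with genes of the factors themselves, such as hif1ab, hif1aa and epas1a, so its median does not describe targets alone. The factor gene hif1ab, with the highest CPM of the list, was at -0.035 (SE 0.085), and vegfab at -0.20 (SE 0.13). The factor gene epas1a, which takes part in the response of vessels to low oxygen, was at 26.5, 27.6 and 29.3 CPM in PEA 1 to 3 and 24.0, 23.0 and 27.3 CPM in control 1 to 3, and the groups overlapped. Genes of dividing cells had a median of 0.068 over 6 genes, with 4 above 0 and 2 below 0 (top2a at -0.023 and ccnb1 at -0.039, named after their values were seen). Among them cdk1 was at 24.9, 26.1 and 24.2 CPM in PEA 1 to 3 and 22.9, 22.2 and 22.8 CPM in control 1 to 3, without overlap (log2 fold change 0.15, SE 0.087, not called by edgeR). Of all genes tested, 2.56% likewise had every PEA library above every control library. In raw counts cdk1 overlapped, with 1094 in PEA 1 and 1136 in control 2, so its order rests on the scaling.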
